A study of Mus musculus with 20 samples.

Results

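The mRNA of 10 enzymes that carry out glycolysis in skeletal muscle was followed through mechanical overload (MOV) with and without a miR-1 mimic. The genes were chosen by name, as the form of each enzyme that muscle is known for, and they were Hk2, Gpi1, Pfkm, Aldoa, Gapdh, Pgk1, Pgam2, Eno3, Pkm and Ldha. They are 10 of the 54532 genes in the count tables, and all 10 were counted in each of the 20 libraries and passed the filter on low counts in each comparison. The libraries came from the plantaris, a fast ankle extensor, of male C57BL/6J mice aged 5 months, collected 10 days after surgery. In MOV, about 50% of the gastrocnemius and soleus was taken out on both sides so that the plantaris carried their load, while sham surgery left those muscles in place. The left plantaris of each mouse was injected with a lentivirus carrying a control sequence and the right one with a lentivirus carrying the miR-1a-3p mimic, both with a mouse CMV promoter and a TurboGFP reporter. With 5 mice per surgery and 1 library per leg there were 5 libraries in each group, which are called sham or MOV by the surgery and control or mimic by the virus. Virus and body side cannot be told apart in this design, and no uninjected muscle was analysed here.

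Between 12036360 and 23056525 reads were counted on genes per library (median 16940547.5). A level is stated in CPM, a gene's share of the library's counts scaled to counts-per-million with edgeR's TMM factors, which even out the bulk of the genes between libraries. All 13 pan-fibre structural genes checked (Acta1, Ttn and others) were present in every library, with a summed level of 39509 to 95156 CPM, as the labelled tissue calls for. Sham control 1 and sham mimic 1 stood apart from the other sham libraries, with TMM factors of 0.789 and 0.782 against 0.898 to 1.04 in the other 8, and MOV mimic 5 stood apart in its group for several of the enzymes. Medians over the enzymes are given with and without these 3 libraries where they moved.

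Glycolysis splits a glucose molecule into a pair of pyruvate molecules in the cytosol and yields ATP without oxygen. It has a first phase that spends ATP, ending with the cut of a six-carbon sugar into a pair of three-carbon sugars, and a second phase that pays ATP back. Fast fibres, which make up most of the plantaris, are rich in these enzymes and turn much of the pyruvate into lactate, while slow fibres rely more on fat and on mitochondria. Several of the steps have other forms of the enzyme in other tissues, such as the ubiquitous Eno1 beside the muscle Eno3, or the heart-type Ldhb beside Ldha.

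The genes sit on 6 chromosomes. In RefSeq coordinates of GRCm38, the build of the alignment, Hk2 lies at chr6:82725025-82774454, Gapdh at chr6:125161852-125166467, Gpi1 at chr7:34201327-34230336, Ldha at chr7:46842274-46855627, Aldoa at chr7:126795234-126800994, Pkm at chr9:59656576-59679372, Pgam2 at chr11:5801637-5803796, Eno3 at chr11:70653125-70662513, Pfkm at chr15:98092589-98132447 and Pgk1 at chrX:106187100-106203699. The gene bodies of Pfkm, Eno3, Pkm and Ldha overlap another annotated gene (Senp1, Pfn1, LOC115487221 and Gm39011), and since no strand setting of the counting is given in the sources used here, reads in those overlaps cannot be assigned with certainty.

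RefSeq gives 17 promoter windows for the 10 genes, each from 250 bases before to 50 bases after a transcript start on GRCm38.p6. The 3 shown were picked because they hold the hypoxia core or the myogenic words among the motifs searched. Any link of these motifs to the enzyme levels was not tested. The core of the hypoxia response element, ACGTG or GCGTG on either strand, was found in 12 of the 17 windows, against 43.8% of all 32851 promoter windows, and in at least 1 window of 8 of the 10 genes, against 46.7% of 27025 genes. Windows of Pfkm and of Aldoa overlap, and in each gene a pair of them counts the same site, so the windows are not independent, and genes with several windows have more chances of a match. Ldha had the most, with 7 matches in its first window, 4 of which come from 2 palindromic CACGTG words that count on both strands. In the first pair of windows below the capitals mark this core and, where it falls in one, the CACGTG word.
Ldha (chr7:46845554-46845853, plus strand): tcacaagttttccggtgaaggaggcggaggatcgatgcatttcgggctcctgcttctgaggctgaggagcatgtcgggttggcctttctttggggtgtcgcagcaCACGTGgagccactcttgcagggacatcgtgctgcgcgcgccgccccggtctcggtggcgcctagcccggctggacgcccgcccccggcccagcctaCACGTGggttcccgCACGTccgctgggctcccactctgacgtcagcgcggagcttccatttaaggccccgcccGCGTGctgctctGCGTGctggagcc
Pgk1 (chrX:106186850-106187149, plus strand): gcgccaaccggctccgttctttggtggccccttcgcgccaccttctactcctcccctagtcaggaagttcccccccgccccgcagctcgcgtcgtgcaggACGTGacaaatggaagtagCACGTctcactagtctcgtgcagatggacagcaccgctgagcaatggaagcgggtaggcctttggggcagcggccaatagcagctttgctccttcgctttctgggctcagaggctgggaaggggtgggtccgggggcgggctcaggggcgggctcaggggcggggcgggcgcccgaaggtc
Pgam2, the muscle form of phosphoglycerate mutase, had no such core. Its window held instead a CAGCTG word, the E-box type bound by myogenic factors, and the only match to the MEF2 consensus among the 17 windows, and both are in capitals here.
Pgam2 (chr11:5803747-5804046, minus strand): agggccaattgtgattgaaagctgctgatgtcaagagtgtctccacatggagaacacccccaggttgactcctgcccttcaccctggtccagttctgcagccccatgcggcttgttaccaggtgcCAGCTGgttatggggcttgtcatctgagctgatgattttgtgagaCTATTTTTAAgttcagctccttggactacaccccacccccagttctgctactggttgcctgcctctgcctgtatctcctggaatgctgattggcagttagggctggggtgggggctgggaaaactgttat
Across the other motifs, CAGCTG was present in windows of 5 of the genes (5 of 17 windows, against 16.3% of all promoters), CACGTG in 2 windows (7.15% of all), the GC box GGGCGG in 7 windows (35.7%), TATAAA in 0 windows (13.6%) and the MEF2 consensus in 1 window (1.86%). A match describes the letters of a window and is no evidence that a factor binds there.

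Before any comparison, the enzymes differed widely in level. Per kilobase of exon (CPM per kb), the order in sham control was Aldoa at 5685 ± 1369 (SD, n = 5), Eno3 at 3535 ± 804, Pgam2 at 1918 ± 381, Pkm at 1591 ± 218, Pfkm at 1178 ± 299, Ldha at 994 ± 168, Pgk1 at 398 ± 81.6, Gapdh at 272 ± 176, Gpi1 at 189 ± 25.4 and Hk2 at 57.0 ± 16.4. Neighbours in this order did not overlap at 3 places only, namely between Eno3 and Pgam2, between Ldha and Pgk1, and between Gpi1 and Hk2. Of all counted reads, the 10 genes together took 3.35% ± 0.327 (SD, n = 5) with the control virus in sham muscle and 2.64% ± 0.190 after MOV, and with the mimic they took 3.19% ± 0.343 and 2.98% ± 0.460. After MOV with the control virus the range was 2.43% to 2.93%, which overlaps the sham control range of 2.91% to 3.71% by a narrow margin.

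**Figure D1:**
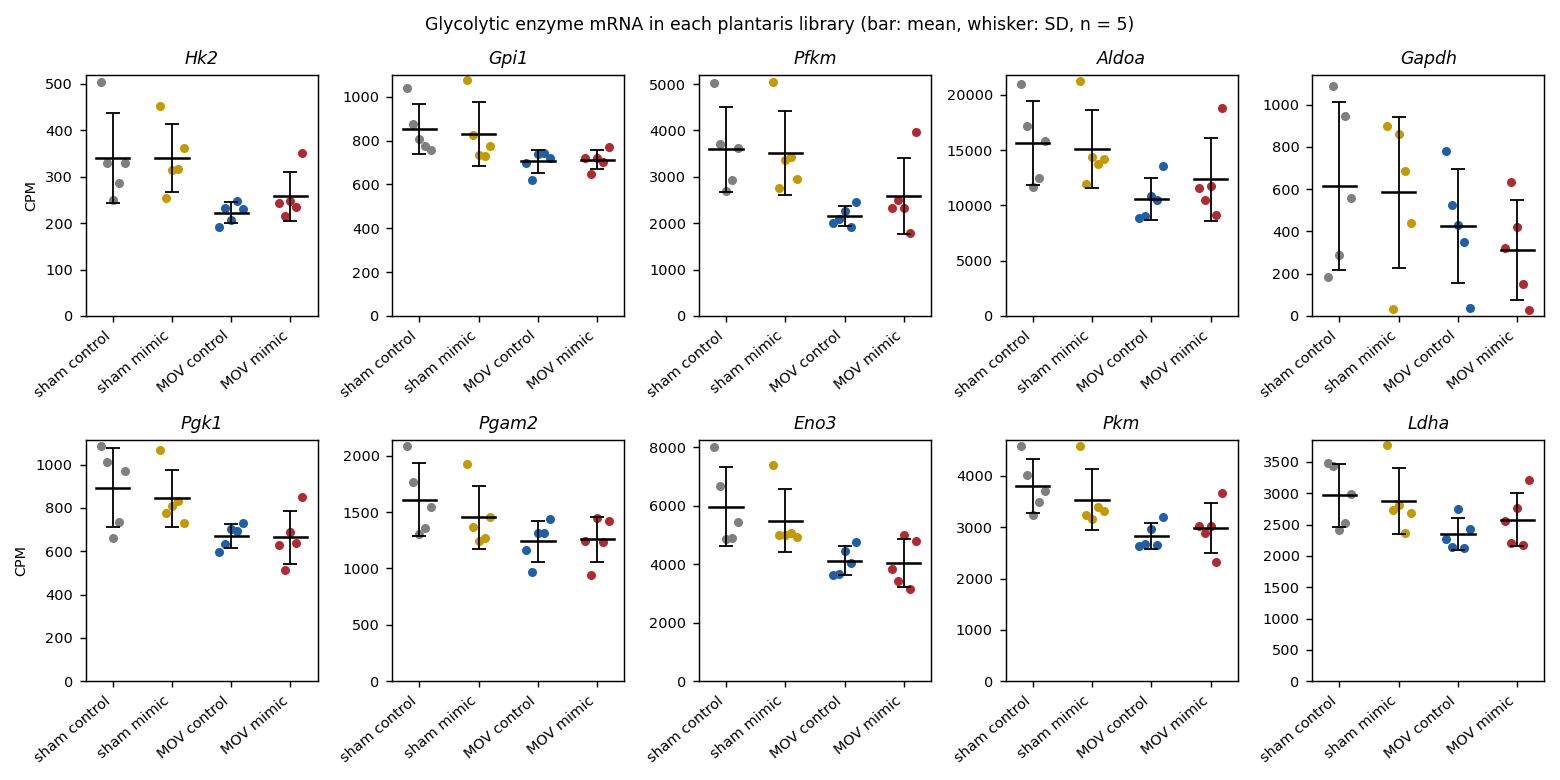
Level of each enzyme in CPM (vertical axes from 0) in the 5 libraries of each group, with the mean as a bar and the SD as a whisker. In the control-virus panels of Hk2, Gpi1, Pfkm, Eno3 and Pkm all 5 MOV points lie under all 5 sham points, whereas the Gapdh points of each group spread over most of its axis.

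The first comparison asked whether overload altered these enzymes in muscle with the control virus. After 10 days of MOV all 10 enzymes had a lower mean than in sham control, and the fitted fold changes stood for levels lower by 16.7% for Gpi1 at the least and 40% for Pfkm at the most. The median log2 fold change of the 10 was -0.47, against 0.04 for all 14974 genes tested, of which 45.8% were negative. In 5 enzymes (Hk2, Gpi1, Pfkm, Eno3 and Pkm) every MOV control library was under every sham control library, a separation in this direction that 2.45% of all genes showed. No enzyme passed an adjusted p of 0.05 in edgeR's quasi-likelihood test, which called 1 gene of 14974 (0.00668%), while 6 of the 10 had an unadjusted p under 0.05 on the lower side (9.15% of all genes). DESeq2, which called 6.1% of all genes in either direction and 3.48% as lower, called 5 of the 10 as lower (Hk2, Pfkm, Aldoa, Eno3 and Pkm), and limma voom called Pfkm alone (1.17% of all genes lower).

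At the entry to the pathway, hexokinase 2 traps glucose in the fibre by phosphorylating it. Hk2 was at 505, 330.0, 250.4, 287 and 330.2 CPM in the 5 sham control libraries and at 192, 233, 207, 248 and 231 CPM in the 5 MOV control libraries. The groups did not overlap, although the lowest sham library and the highest MOV library differed by little, and sham control 1 was far above the rest. The log2 fold change was -0.61 ± 0.18 (SE), a 1.52-fold lower level, with an edgeR adjusted p of 0.109 and a DESeq2 adjusted p of 0.027.

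Glucose-6-phosphate isomerase, the next enzyme, had the smallest difference. Gpi1 ranged over 755 to 1039 CPM in sham control and over 620.4 to 745 CPM in MOV control (log2 fold change -0.26 ± 0.13, edgeR adjusted p = 0.322). Its groups did not overlap, which gives the smallest p that an exact two-sided permutation test over 10 libraries allows, 0.00794.

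Phosphofructokinase is the main control point of the pathway, and its muscle form had the largest difference of the 10 by fitted log2 fold change. By mean log2 CPM the difference was -0.714 for Pfkm and -0.737 for Gapdh. Pfkm stood at 5032, 3704, 2684, 2939 and 3614 CPM in sham control. In MOV control it stood at 1999, 2100.4, 2260.1, 1918 and 2461 CPM, so that the whole MOV group lay under the lowest sham library. The mean went from 3595 ± 913 to 2148 ± 217 CPM (SD, n = 5 each), a log2 fold change of -0.74 ± 0.19 and a 1.67-fold lower level. Its adjusted p was 0.077 in edgeR, 0.00198 in DESeq2 and 0.0458 in limma voom. When sham control 3 was left out edgeR called it as well (adjusted p = 0.0411), in a fit that called 426 genes in all against 1 with every library.

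Aldolase A cuts the six-carbon sugar and was the most abundant of the enzymes. Aldoa was at 21024, 17214, 11685, 12517 and 15848 CPM in sham control and at 8846, 9046, 10851, 10448 and 13595 CPM in MOV control. The groups overlapped through MOV control 5, which was above the lowest pair of sham libraries, and the exact permutation p was 0.0317. On the log2 scale the difference was -0.56 ± 0.22, with an adjusted p of 0.199 in edgeR and 0.0497 in DESeq2, just inside the threshold.

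The payoff phase opens with glyceraldehyde-3-phosphate dehydrogenase, which is often used as a reference gene, and here it behaved unlike the others. Gapdh was at 185, 1089, 287, 948 and 559 CPM in sham control and at 779, 526, 433, 350.1 and 38.5 CPM in MOV control. Values within MOV control differed by up to 20.2-fold, and the fitted difference between groups (-0.52 ± 0.62 on the log2 scale) was smaller than its SE. The difference of mean log2 CPM was -0.737 (exact permutation p = 0.508). Phosphoglycerate kinase 1, the first step that makes ATP, ranged from 663 to 1085 CPM in sham control and from 594 to 730.4 CPM in MOV control (log2 fold change -0.41 ± 0.16, edgeR adjusted p = 0.205, exact permutation p = 0.0476).

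Pgam2, which moves the phosphate group of phosphoglycerate, ranged from 1305 to 2083 CPM in sham control and from 969 to 1439.6 CPM in MOV control, with overlapping groups. Its log2 fold change of -0.37 ± 0.17 had an edgeR adjusted p of 0.282 and an exact permutation p of 0.0556. Eno3, the muscle enolase, was at 8012, 6669, 4849, 4894 and 5429 CPM in sham control and at 3625, 3666, 4455, 4059 and 4773 CPM in MOV control. No library of one group reached the other, and the log2 fold change was -0.53 ± 0.19 (adjusted p = 0.164 in edgeR and 0.033 in DESeq2).

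Pyruvate kinase completes the pathway and is encoded in muscle by Pkm, whose spliced forms were counted together. Pkm was at 4582, 4013, 3230.1, 3492 and 3698 CPM in sham control and at 2634, 2663, 2963, 2658 and 3204 CPM in MOV control. The highest MOV library was just under the lowest sham library, and the log2 fold change was -0.42 ± 0.16 with an adjusted p of 0.176 in edgeR and 0.0193 in DESeq2. Ldha, the lactate dehydrogenase subunit that dominates in fast muscle, ranged from 2405 to 3475 CPM in sham control and from 2131 to 2744 CPM in MOV control (log2 fold change -0.33 ± 0.16, edgeR adjusted p = 0.31, exact permutation p = 0.0476).

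Single libraries decided how many of the enzymes were called. With each library left out in turn, all 10 differences stayed negative, edgeR called 0 of the 10 except without sham control 3 (1, Pfkm), and DESeq2 called between 1 and 6. The number of genes called in all also varied over these fits, from 0 to 426 in edgeR and from 449 to 1487 in DESeq2, where 6 of the enzymes came with 1395 genes without sham control 3. Without sham control 1, DESeq2 called Pfkm alone among 509 genes and the median log2 fold change over the 10 was -0.38. The count by DESeq2 was also 1 without sham control 2, sham control 5 or MOV control 1, and 2 without MOV control 2, 3 or 4.

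**Figure D2:**
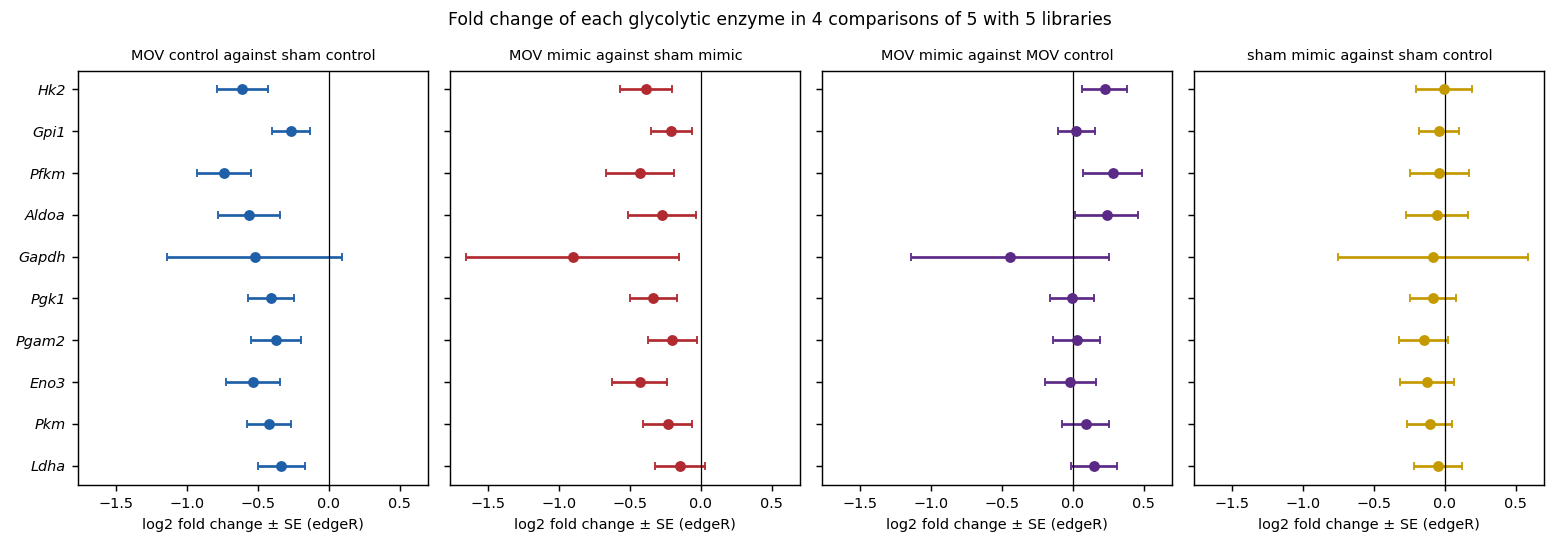
Log2 fold change of each enzyme from edgeR, with its SE as a bar, in the 4 comparisons of 5 with 5 libraries; the vertical line marks no difference. All 10 points are left of it in both comparisons of MOV with sham, near it in sham mimic against sham control, and on both sides of it in MOV mimic against MOV control.

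The second comparison asked the same question in muscle with the miR-1 mimic. All 10 enzymes again had negative log2 fold changes between MOV mimic and sham mimic, with a median of -0.30 against 0.02 for all 14918 genes tested, of which 48.2% were negative. None was called by edgeR, which called 0 of 14918 genes (1997 at an unadjusted p under 0.05), and none by DESeq2 (221 genes called, 1.48%) or limma voom (2 genes called). Eno3 alone had an unadjusted p under 0.05 on the lower side, as did 6.08% of all genes, and the groups of each enzyme overlapped, whereas in 1.74% of all genes every MOV mimic library was under every sham mimic library.

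Eno3 was at 7406, 4998, 5001, 5080.4 and 4948 CPM in sham mimic and at 3830.2, 3414, 4994, 3153 and 4809.7 CPM in MOV mimic. The groups overlapped by a small margin, through MOV mimic 3, and the log2 fold change was -0.43 ± 0.19 (adjusted p = 0.364 in edgeR, exact permutation p = 0.0159). Pfkm was at 5042, 2761, 3373, 3422 and 2947 CPM in sham mimic and at 2332, 2507, 2321, 1797 and 3975 CPM in MOV mimic. Here sham mimic 1 and MOV mimic 5 were the highest of their groups by a wide gap, and the log2 fold change of -0.42 ± 0.24 became -0.27 without the former and -0.65 without the latter.

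Hk2 was at 451, 254, 315, 317 and 361 CPM in sham mimic and at 242, 216, 248, 234 and 350.5 CPM in MOV mimic, with a log2 fold change of -0.38 ± 0.18 (edgeR adjusted p = 0.382). Aldoa was at 21215, 11946, 14425, 13766 and 14188 CPM in sham mimic and at 11583, 10489.9, 11771, 9177 and 18793 CPM in MOV mimic, a difference of -0.27 ± 0.24 on the log2 scale. In both genes MOV mimic 5 was the highest library of its group and sham mimic 1 the highest of the other. Pkm was at 4587, 3235, 3161, 3392 and 3315 CPM in sham mimic and at 3026, 2891, 3031, 2313 and 3667 CPM in MOV mimic (-0.23 ± 0.18).

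The remaining enzymes of the mimic comparison had log2 fold changes of -0.21 ± 0.14 for Gpi1, -0.33 ± 0.17 for Pgk1, -0.20 ± 0.17 for Pgam2, -0.14 ± 0.18 for Ldha and -0.90 ± 0.75 for Gapdh. Exact permutation tests gave p = 0.0476 for Gpi1 and p = 0.0476 for Pgk1, and values from 0.286 to 0.437 for Pgam2, Ldha and Gapdh. Without MOV mimic 5, DESeq2 called 4 of the 10 as lower, Hk2, Pfkm, Eno3 and Pgk1, among 1332 genes called in all against 221 with every library, and the median log2 fold change of the 10 was -0.47. Without sham mimic 1 the median was -0.19 and none was called by edgeR or DESeq2.

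Scaling bore on the size of these differences. When libraries were scaled so that the 13 pan-fibre structural genes kept the same mean, the median of all genes moved from 0.02 to 0.27 in the mimic comparison and from 0.04 to 0.12 in the control comparison. The enzymes then had a median of -0.06 in the mimic comparison, with Gpi1, Pgam2, Pkm and Ldha turning positive, and of -0.36 with all 10 negative in the control comparison. Relative to the median of all genes under this scaling, the enzymes had a median of -0.32 with the mimic and -0.48 with control virus. All 10 enzymes were under the median of all genes in both comparisons. With TMM these relative values were -0.32 and -0.51, since a change of scaling moves all genes by about the same amount. They therefore cannot show whether the differences hold under another scaling. In bulk RNA a lower level of a fibre gene cannot be told apart from fewer fibres or less fibre RNA in the sample.

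Within MOV, the mimic was then compared with the control virus. This comparison shares its libraries with the first and second ones. It treats both legs of a mouse as independent, since the labels do not say which libraries share a mouse. With the replicate block described below, DESeq2 called more genes than without it. The log2 fold changes were positive for 7 enzymes, the largest being 0.28 ± 0.21 for Pfkm, 0.24 ± 0.22 for Aldoa and 0.22 ± 0.16 for Hk2, and negative for Gapdh (-0.44 ± 0.70), Eno3 (-0.02 ± 0.18) and Pgk1 (-0.00 ± 0.16), where 50.7% of all genes were negative. Unadjusted p-values from edgeR ran from 0.184 to 0.976, so that none passed even before adjustment. The groups overlapped for all 10, and 0.762% of all genes had groups that did not. The edgeR test called 0 of 15220 genes here (641 at an unadjusted p under 0.05), and DESeq2 called 3 (0.0197%), none of them one of these enzymes. The median over the 10 was 0.06, and it was -0.01 without MOV mimic 5.

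In sham muscle all 10 log2 fold changes of mimic against control were negative but small, against 49.8% of all genes that were negative. The largest log2 fold change was -0.15 ± 0.17 for Pgam2 and the smallest -0.00 ± 0.20 for Hk2, whose means were 339.7 ± 73.1 and 340.5 ± 97.6 CPM (SD, n = 5 each). The median of the 10 was -0.07, and it was 0.00 without sham control 1 and -0.20 without sham mimic 1. Unadjusted edgeR p-values were between 0.398 and 0.987, and edgeR and DESeq2 called 0 of 14746 genes (254 at an unadjusted p under 0.05 in edgeR). Whether the overload difference itself depended on the virus was tested by the interaction term over 20 libraries. Like both comparisons of mimic with control, the interaction took the legs of a mouse as independent. It was positive for 9 enzymes and negative for Gapdh, from -0.38 ± 1.05 for Gapdh to 0.30 ± 0.30 for Pfkm on the log2 scale, with unadjusted edgeR p-values of 0.324 to 0.766, and neither edgeR nor DESeq2 called any of the 10. Its median over the 10 was 0.18, and it was 0.07 without sham control 1, 0.30 without sham mimic 1 and 0.08 without MOV mimic 5. By edgeR 0 of 16166 genes had an interaction past the threshold, with 426 (2.64%) at an unadjusted p under 0.05, and by DESeq2 1 gene did (0.00619%).

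Library by library, 9 of the 10 enzymes went up and down together. Over the 20 libraries the Pearson correlation of log2 CPM between pairs of these 9 had a median of 0.87 (0.73 to 0.96 over 36 pairs), and the median of Spearman's rho was 0.80. After the group means were taken out the Pearson median was 0.81, and without sham control 1 and sham mimic 1, the libraries farthest from the median, it was 0.78. The libraries share scaling and include both legs of the same mice, so these values are a description with no p.

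Gapdh took no part in this pattern. Its correlation with the other 9 had a median of 0.0046 over the 20 libraries (-0.080 to 0.068) and of -0.20 after the group means were taken out. It ranged from 29.9955 CPM in MOV mimic 5 to 1089 CPM in sham control 2, a 36.3-fold range on 473 to 17812 counts, which is far beyond counting error. The lowest 3 libraries were MOV mimic 5, sham mimic 2 (34.5 CPM) and MOV control 5 (38.5 CPM), 1 in each of 3 groups. Among 8518 genes with a mean of at least 10 CPM, only 45 had a larger SD of log2 CPM, which was 1.60 for Gapdh, 0.19 to 0.43 for the other enzymes and 0.287 for the median gene. Reads that fit more than 1 place are a known issue for this gene, which has many processed copies in the genome. Of 3 copies listed by name, 1 (Gapdh-ps16) was in the count tables and held 20 counts in all against 173550 for Gapdh, the handling of such reads is not given in the sources used here, and their part in the spread was not tested. Named copies of Gpi1, Pgk1 and Ldha held more, with 494 counts for Gpi-ps against 264841 for Gpi1, 1117 for Pgk1-rs7 against 261776 for Pgk1 and 1754 for Ldha-ps2 against 919576 for Ldha.

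**Figure D3:**
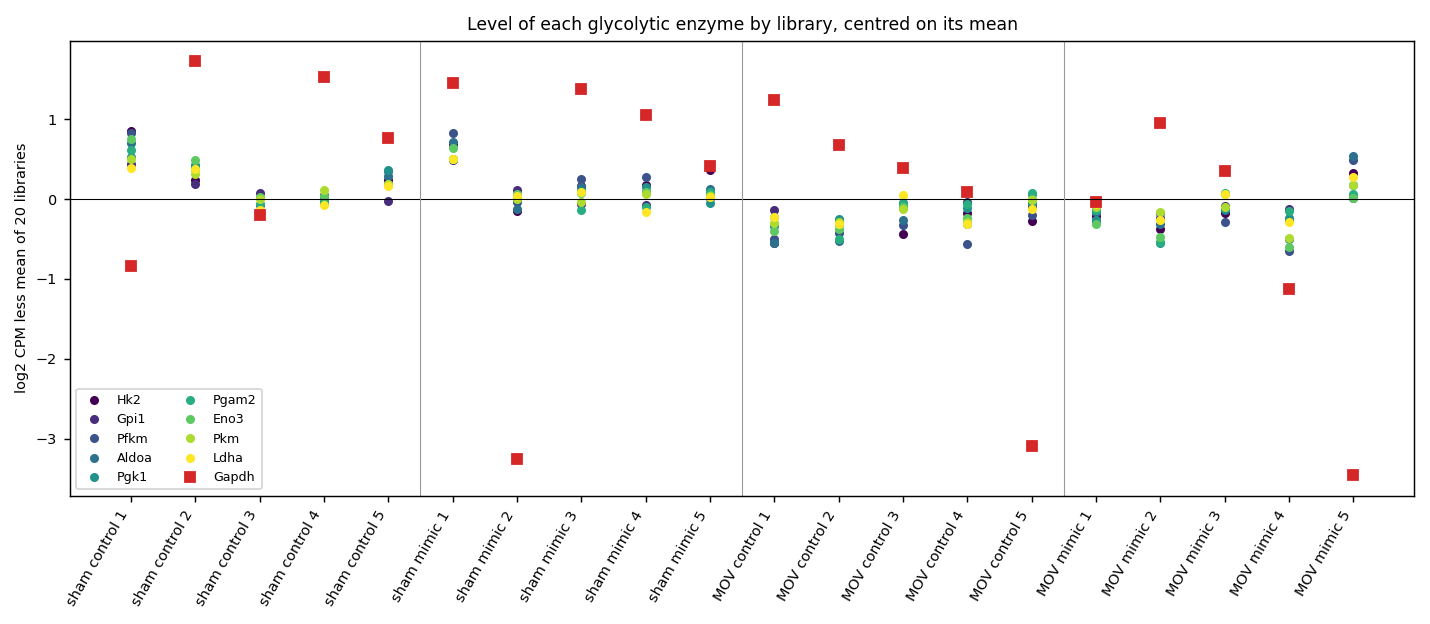
Log2 CPM of each enzyme in each of the 20 libraries, less its mean over the 20 (vertical axis), with the groups divided by lines and Gapdh as red squares. The other 9 enzymes stay within about 1 log2 unit of their means and move together, with sham control 1, sham mimic 1 and MOV mimic 5 high, while Gapdh is about 3 log2 units under its mean in 3 libraries.

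The muscle forms were also set against other forms of the same enzyme within each library, which needs no scaling between libraries. Per kilobase of exon, Hk2 made up 98.2, 96.1, 93, 92.8 and 94.3% of Hk1, Hk2 and Hk3 in the sham control libraries and 88.1, 90.6, 88.3, 89.3 and 96% in the MOV control libraries. All but 1 of the MOV control libraries were under the lowest sham library, and the mean went from 94.9% ± 2.27 to 90.4% ± 3.28 (SD, n = 5 each; exact permutation p = 0.0397, 0.259 after adjustment over 28 tests). With the mimic it went from 94.9% ± 1.95 to 87.3% ± 8.58 (exact permutation p = 0.0873), with the lowest share, 75.9%, in MOV mimic 4. Hk3, a form known from leukocytes, was at 4.11 ± 2.59 CPM (SD, n = 5) in sham mimic and 12.9 ± 12 CPM (n = 5) in MOV mimic (log2 fold change 1.63 ± 0.64, DESeq2 adjusted p = 0.138). The summed level of 12 leukocyte markers ranged from 375 to 1158 CPM in sham mimic and from 593 to 1709 CPM in MOV mimic, with none of them at 0, and their part in the Hk2 share was not tested.

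The Eno3 share of the enolases went from 98.7% ± 0.442 to 98.1% ± 0.492 with the control virus and from 98.8% ± 0.3 to 98.1% ± 0.57 with the mimic (exact permutation p = 0.0397 and 0.0476). The Ldha share of Ldha and Ldhb was 84.9% ± 3.16 in sham control and 89.5% ± 3.74 in MOV control (exact permutation p = 0.0714), while in sham mimic and MOV mimic it was 88.1% ± 1.22 and 88% ± 3.15. Pfkm, Aldoa, Pgam2 and Pkm made up over 98% of their families in all 20 libraries. None of the 28 share tests passed after adjustment, the smallest adjusted p being 0.259.

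**Figure D4:**
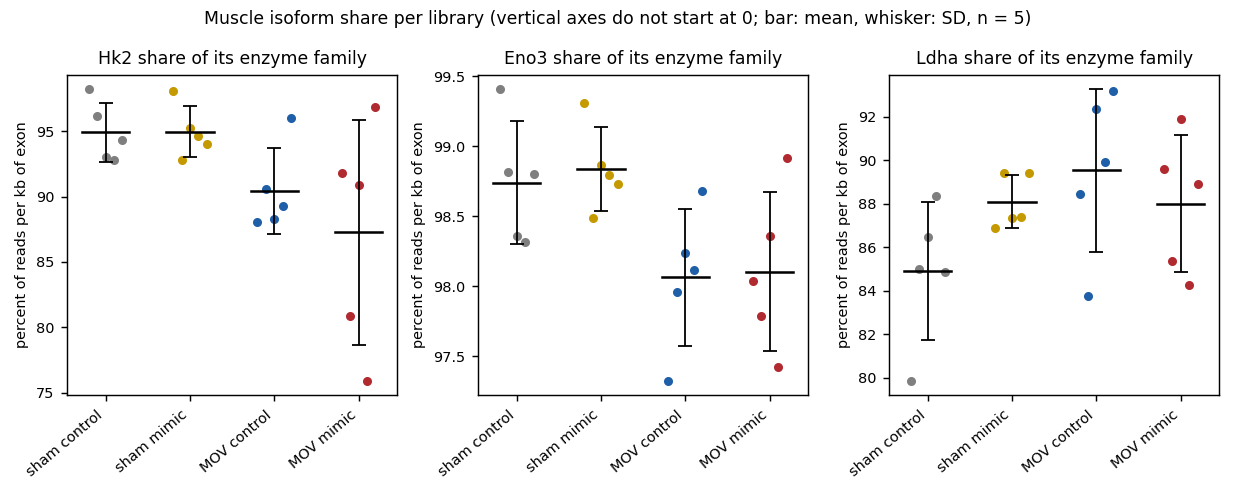
Share of Hk2, Eno3 and Ldha in the reads per kb of their enzyme family (percent, axes not from 0) in the 5 libraries of each group, with the mean as a bar and the SD as a whisker. The Hk2 and Eno3 points of both MOV groups reach lower than those of the sham groups, with overlap, and the Ldha points of sham control reach lowest.

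The other forms and the enzymes left out of the 10 were taken as a list of 18 genes, of which 14 were tested in the control comparison. Their median log2 fold change was 0.07, with 8 positive and 6 negative, and edgeR called 0. DESeq2 called 3 of them as lower.

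Ldhb went from 287 ± 114 to 143 ± 47.8 CPM (SD, n = 5 each; DESeq2 adjusted p = 0.0124). Bpgm, which makes the 2,3-bisphosphoglycerate of red cells, went from 94 ± 30.9 to 48.6 ± 8.37 CPM (-0.95 ± 0.21, DESeq2 adjusted p = 0.0025). Red cell genes stood lower in MOV control too, at a summed 12.2 to 54.0 CPM against 32.7 to 92.9 CPM in sham control, and their part in the Bpgm value was not tested. Tpi1, triose phosphate isomerase, is the step between Aldoa and Gapdh, and its log2 fold change of -0.41 ± 0.18 (DESeq2 adjusted p = 0.133) lay within the range of the 10.

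None of the forms in this paragraph was called by edgeR or DESeq2. Hk1, Eno1, Pgam1, Pfkl and Pfkp had differences around 0 or above it, unlike Ldhb and Tpi1, which were lower. Hk1 stood at 15 ± 4.6 CPM in sham control and 23.9 ± 8.62 CPM in MOV control (0.68 ± 0.29), Eno1 had 0.16 ± 0.17, Pgam1 0.07 ± 0.26, Pfkl 0.08 ± 0.20 and Pfkp 0.11 ± 0.25. The log2 fold changes were 0.13 ± 0.48 for Hk3, 0.60 ± 0.74 for Aldoc, -0.12 ± 0.44 for Eno2, -0.17 ± 0.13 for Ldhd and 0.14 ± 0.16 for Adpgk. Hkdc1, Eno4 and Pklr did not pass the filter, with group means of at most 0.348 CPM.

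Genes around the pathway were taken as lists, and the genes named from them are among the up to 3 per list and direction with the smallest adjusted p among those DESeq2 called, since edgeR called none in any list. Of 6 genes of glucose entry, DESeq2 called 3 as lower and the median log2 fold change was -0.76. Slc2a4, the insulin-responsive glucose transporter, ranged from 324 to 742 CPM in sham control and from 217 to 268 CPM in MOV control, without overlap (-0.97 ± 0.20, adjusted p = 0.0554 in edgeR and 0.000531 in DESeq2). Txnip, which restrains glucose uptake, had -1.45 ± 0.24 (DESeq2 adjusted p = 2.46e-06) and Slc2a12 -0.80 ± 0.20 (DESeq2 adjusted p = 0.0092).

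Among 13 tested regulators of the flux, DESeq2 called 7 as lower (median of the list -0.59). Pfkfb3 and Pfkfb1, which set the level of the activator fructose 2,6-bisphosphate, had log2 fold changes of -1.64 ± 0.34 and -1.18 ± 0.26 (DESeq2 adjusted p = 0.000263 and 0.0013). Fbp2, the muscle fructose bisphosphatase, works against Pfkm and was lower too, from 22 ± 10.2 to 7.08 ± 3.63 CPM (-1.63 ± 0.39, DESeq2 adjusted p = 0.00209). The genes DESeq2 called lower in this list thus include enzymes that set the activator and an enzyme that works against the step. They give no direction for the flux.

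Lactate and pyruvate transport had 4 of 8 genes called as lower by DESeq2 (median -0.54). Slc16a3, the lactate exporter of fast fibres, ranged from 174 to 371 CPM in sham control and from 118 to 158 CPM in MOV control (-0.93 ± 0.18, DESeq2 adjusted p = 0.000274). Mpc2, a subunit of the mitochondrial pyruvate carrier, had -0.97 ± 0.20 (DESeq2 adjusted p = 0.000727) and Slc16a1, the lactate transporter linked to uptake, -0.53 ± 0.12 (DESeq2 adjusted p = 0.00555). The groups of all 3 genes did not overlap, but the genes were picked for their small adjusted p. Of all genes, 2.45% were lower without overlap.

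Of 19 genes of glycogen metabolism, 14 were negative and 4 called as lower by DESeq2 (median -0.41). Pygm, the muscle glycogen phosphorylase, went from 6801 ± 1809 to 3823 ± 754 CPM (-0.82 ± 0.22, DESeq2 adjusted p = 0.00286), Ugp2 had -0.60 ± 0.17 (DESeq2 adjusted p = 0.0141) and Ppp1r3a, which directs a phosphatase to glycogen, -0.71 ± 0.21 (DESeq2 adjusted p = 0.0317). The 15 genes of the pentose phosphate and serine branch had a median of -0.00 with none called. In the list of 20 HIF and hypoxia genes, which share regulators with glycolysis in many cells, the median was -0.18, and DESeq2 called 2 as lower, Egln1 (-0.76 ± 0.19) and Vegfa (-0.63 ± 0.19).

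Of the genes of oxidative metabolism edgeR called none in either comparison of MOV with sham. With the control virus DESeq2 called 8 of 16 genes of fatty acid oxidation as lower (median -0.56), led by Etfdh (-0.84 ± 0.18), Acaa2 (-0.81 ± 0.19) and Acadm (-0.88 ± 0.22), and 8 of 16 Krebs cycle genes (median -0.46), among them Idh3a (-0.73 ± 0.19) and Sdha (-0.66 ± 0.18). In the mimic comparison the medians were -0.44 and -0.51, with 5 genes of each list called as lower by DESeq2, against none of the 10 glycolytic enzymes. Whether the lists differed from one another was not tested. Over the same comparison the medians were -0.67 for glucose entry, -0.33 for flux regulators, -0.40 for transport, -0.35 for glycogen and 0.22 for the other forms, of which DESeq2 called 1, 0, 1, 0 and 0.

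**Figure D5:**
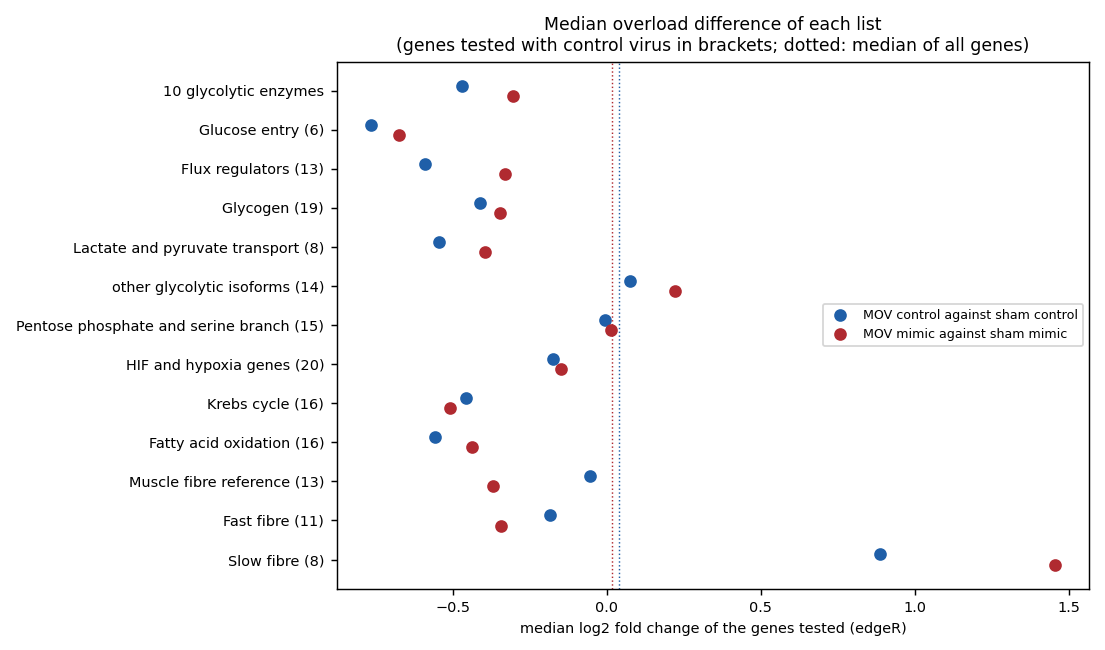
Median log2 fold change (edgeR) of the genes tested in each list for MOV control against sham control (blue) and MOV mimic against sham mimic (red), with dotted lines at the medians of all genes. The 10 glycolytic enzymes lie left of the lines at -0.47 and -0.30, as do the lists of glucose entry, flux, glycogen, transport, Krebs cycle and fatty acid oxidation, and slow fibre genes lie right of them at 0.89 and 1.45.

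The genes whose log2 CPM over the 20 libraries was most like the mean of the 10 enzymes, among 8508 others with a mean of at least 10 CPM, were Plin4 (Pearson r = 0.89), Mpc2 (0.88), Slc16a3 (0.88), Slc2a4 (0.87) and Cebpg (0.87). With Gapdh left out of the mean, a choice made after its values were seen, they were Crat (0.97), Idh3a (0.97), Dhrs7c (0.96), Slc25a12 (0.96) and Bsg (0.96). These values rest on the same 20 libraries, scaling and depth.

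Genes of other cell and fibre types were looked at beside the enzymes, and edgeR called none of them in any comparison. Fast fibre genes summed to 79349 to 144471 CPM in MOV control against 105331 to 175644 CPM in sham control (median log2 fold change of 11 genes -0.19), with 7 genes negative and 4 positive. DESeq2 called 2 of the 11 as lower, Myh4, the fastest myosin (-1.59 ± 0.30, adjusted p = 2.46e-06), and Mybpc2 (-0.59 ± 0.21, adjusted p = 0.0429), while Myh1, another fast myosin, had a log2 fold change of 0.84 ± 0.33 (DESeq2 adjusted p = 0.071). The 8 slow fibre genes had a median of 0.89 with the control virus and 1.45 with the mimic, and summed to 634 to 1791 and 507 to 3284 CPM after MOV against 501 to 1422 and 510 to 1343 CPM in sham. DESeq2 called 1 of the 8 with the control virus, Myl2 as lower (-0.69 ± 0.22), and 1 with the mimic, Myh7b as higher (5.13 ± 1.94 to 14.4 ± 8.21 CPM, SD, n = 5 each). The 7 genes of satellite cells and regenerating fibres had medians of 1.18 and 0.52, with Pax7, a marker of satellite cells, called higher by DESeq2 with the control virus (1.17 ± 0.27, adjusted p = 0.00369). Proliferation genes had medians of 0.56 and 0.58 and tendon genes of 0.31 and 0.46, with none called. Endothelial genes had medians of -0.38 and -0.36, smooth muscle and pericyte genes 0.10 and -0.41, Schwann genes -0.15 and -0.37, adipocyte genes -1.46 and -1.24 and red cell genes -1.30 and -0.16, of which DESeq2 called 1, 2, 0, 0 and 1 as lower with the control virus and 2, 1, 0, 0 and 0 with the mimic. Leukocyte genes had a median of -0.36 with the control virus, 0.22 with the mimic and 0.50 in MOV mimic against MOV control, with 1 gene called by DESeq2, Cd74 as higher with the mimic (1.30 ± 0.37, adjusted p = 0.0261), and fibroblast genes -0.14, -0.01 and 0.09. The 13 pan-fibre structural genes had medians of -0.05 with the control virus and -0.37 with the mimic. No marker of these lists was at 0 in all libraries of a group. The mean of the 9 enzymes without Gapdh correlated over the 20 libraries at r = 0.92 with the Krebs cycle list, 0.90 with fatty acid oxidation, 0.72 with the fast fibre list, 0.68 with the pan-fibre list and -0.76 with the slow fibre list, and at -0.46 with leukocytes and -0.50 with fibroblasts, values given with no p since libraries share mice and scaling. Their part in the differences of the glycolytic enzymes was not tested.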

How the data were processed

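The authors trimmed the reads (FastQC 0.11.9, cutadapt 4.4, Trim Galore 0.6.10), aligned them to GRCm38 with HISAT2 2.0.5 and deposited raw counts per gene from featureCounts 1.5.0-p3, per the submitters' processing notes and the methods. The annotation release and the strand and multiple-match settings are not given in the sources used here. The counts were used as deposited, with groups from the labels. Of 54532 genes, 30067 had a symbol in the tables used, and Pkm was matched through its identifier. The lowest chi-square per gene between libraries of a group was 13.9 over 40 pairs, so no library was taken as a copy of another.

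Genes passing edgeR's filterByExpr were tested with its quasi-likelihood test (edgeR 4.0.16, legacy setting, TMM, groups compared only, two-sided, Benjamini-Hochberg over all genes tested, threshold 0.05). The SE of a log2 fold change was taken from its size and the test's F. Single enzymes and shares were compared with exact permutation tests of 5 with 5 libraries (252 splits, smallest p 0.00794). DESeq2 1.42.0, limma voom 3.58.1 with quality weights, other scalings and filters, a replicate block and fits without each library were alternatives. The tests were checked on simulated counts. Versions were R 4.3.3 and Python 3.11.15.

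The members and all lists were chosen with earlier results of these data known. The rule for named genes was the 10 enzymes, the other forms, up to 3 called genes per list and direction and the 5 most alike genes. Since edgeR called none in the lists, DESeq2 calls were used after the values were seen, and so were a newer edgeR setting and DESeq2 fits without each library. Promoters are RefSeq's. Some genes that this rule names are not reported here.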

Additional observations from a re-analysis of the deposited data

Results flagged for a closer look

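In 68 sets of 5 libraries (each enzyme's level and each form's share per group), 9 values, from 4 libraries, lay far from the rest of their group by Dixon's test (critical value 0.71). Chance alone marks about 1 independent set in 20, and these sets are not independent, since the enzymes vary together across libraries. Of these, 5 were the sham mimic 1 library as the highest of its group, at 1078.76 CPM for Gpi1, 5042.25 CPM for Pfkm, 21215.4 CPM for Aldoa, 7406.03 CPM for Eno3 and 4587.26 CPM for Pkm. The MOV mimic 5 library was the highest of its group at 350.497 CPM for Hk2 and 18792.6 CPM for Aldoa. The sham mimic 1 library had the lowest TMM factor of the 20, 0.782, and sham control 1 the next, 0.789. In the remaining pair the share of the muscle form in its family was the lowest of the group, 99.9895% for Aldoa in sham control 4 and 99.9952% for Pkm in MOV mimic 2, differences of under 0.05 percentage points. The Pkm share was 100% in the other 4 libraries of that group, so any read of the other form sets it apart. The cause of these values was not tested.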

How the results depend on the processing

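Calls depended on the test more than the fold changes did. In MOV control against sham control, edgeR called 0 of the 10 enzymes and 1 gene in all, against 5 enzymes and 913 genes with DESeq2, 1 and 294 with limma voom, and 0 and 192 with edgeR's newer quasi-likelihood method. The number of genes called was 388 without a filter, 163 with at least 10 counts in total, 36 with all 20 libraries in one fit and 0 with scaling to the pan-fibre genes. With 1 library left out, edgeR called 0 to 1 enzymes and 0 to 426 genes, with 426 without sham control 3, 318 without MOV control 5 and 6 without MOV control 3, and DESeq2 called 1 to 6 enzymes and 449 to 1487 genes. In MOV mimic against sham mimic the genes called were 221 with DESeq2, 2 with limma voom, 1 without a filter and 3 with all 20 libraries. There, leaving out 1 library gave 0 to 101 genes with edgeR, and 0 to 4 enzymes and 54 to 1332 genes with DESeq2, the highest values each without MOV mimic 5. In MOV mimic against MOV control DESeq2 called 3 genes and the fit of all 20 libraries 1, and for the interaction DESeq2 called 1. The causes were not tested. Over 21 settings, the median of the 10 enzymes lay 0.41 to 0.59 log2 units under that of all genes with the control virus and 0.20 to 0.49 with the mimic, with all 10 under it each time. Among these settings, a change of scaling nearly cancels in such a relative value, and the replicate block joins different mice. The exact p of Pgk1 with the mimic went from 0.0476 to 0.0556 on CPM in place of log2 CPM.

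Equal replicate numbers were not taken as pairs. The correlation of deviations between legs of equal number was 0.0702 to 0.389 in MOV and 0.00963 to 0.766 in sham. For unequal numbers the means were -0.0549 and -0.0633. MOV numbers 2, 4 and 5 and sham number 1 were each closest to their own number in both directions, and the remaining numbers were not. With the replicate block DESeq2 called 1 enzyme (Pfkm) and 722 genes in MOV control against sham control, 116 genes in MOV mimic against sham mimic, 127 in MOV mimic against MOV control and 5 for the interaction, and edgeR 1, 0, 0 and 0 genes. Had equal numbers been pairs, Ldha would have been higher with the mimic in 5 of 5 MOV pairs and Pgam2 lower in 5 of 5 sham pairs, each at the smallest p of an exact sign-flip test (0.0625). Between surgeries equal numbers are different mice, so the block is no valid check of the comparisons of MOV with sham.

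The lowest count of any of the 10 enzymes in a library was 473 (Gapdh in MOV mimic 5), so the spread between 5 libraries a group, rather than depth, set the precision of the fold changes.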
